A study of Mus musculus with 4 samples.

Results

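Transcripts of 10 genes of the S100 and annexin families were followed in sorted retinal microglia, the macrophages that live in this tissue. The genes were S100a1, S100a4, S100a6, S100a10, S100a11, Anxa1, Anxa2, Anxa3, Anxa4 and Anxa5, out of 15586 genes in the table. They were chosen from these families with their values in TAK1 knockout and control libraries already known, so the comparison of these groups is given for them as a description and without a test. All 10 passed the filter used for testing, a mean of at least 1 FPKM (sequenced fragments corrected for transcript length and library size) over the 4 libraries. S100a6 passed it through 1 library only.

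TAK1, the product of Map3k7, is a kinase that carries signals from cytokine and pattern recognition receptors to NF-kB and MAP kinases. Mice were 2 months old and carried CreER, a recombinase switched on by tamoxifen, at the Cx3cr1 locus, which other macrophages and monocytes also use. The 2 TAK1 knockout samples came from mice given tamoxifen at 75 mg/kg on 5 successive days. Their genotype label reads Cx3cr1CreER/+;Tak3fl/fl, while the treatment protocol names floxed Tak1. The 2 control samples, labelled Cx3cr1CreER/+;Tak1fl/fl, came from mice given corn oil for the same 5 days, so deletion and drug cannot be told apart. Each library held 200 cells sorted on EYFP, and no label says that libraries of a group came from separate animals. The p-values below therefore reflect variation among these 4 libraries alone, and that variation may be technical. Map3k7 was listed at 0.02 and 0.08 FPKM in knockouts 1 and 2, against 0.03 and 0 FPKM in controls 1 and 2, so it could not check the labels.

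S100 proteins are small calcium sensors with EF-hand loops that pair up and bind partner proteins when calcium rises. Some are released from cells and bind receptors such as RAGE and TLR4. Annexins bind acidic membrane lipids when calcium rises and take part in vesicle traffic, membrane repair and the handling of dying cells. The families meet in fixed complexes: an S100A10 dimer joins a pair of annexin A2 molecules at the plasma membrane, and S100A11 binds annexin A1. In the brain and retina several of these genes are known from activated microglia and from macrophages that enter from the blood.

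The libraries have limits that touch every value below. The FPKM of a library summed to 823229 and 812009 in the knockouts and to 969700 and 863652 in the controls, and read depth was unknown. For 32.1% of the 7823 tested genes, over 90% of the FPKM summed over libraries came from just 1 of them. More genes reached 1 FPKM in the knockouts, 6055 and 5628, than in the controls, 4481 and 3777. The part of this difference in the shares and medians over all tested genes given below was not tested. Genes that every cell uses could be near 0, such as Polr2a of RNA polymerase II. It read 8.5 and 9.04 FPKM in the knockouts and 0.01 and 0 FPKM in the controls. A value near 0 is therefore given as listed and not as silence. The 12 microglia markers were all in the table, and 12 and 12 of them reached 1 FPKM in the knockouts and 11 and 12 in the controls.

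The members took several forms. In 4 of the 10, S100a1, S100a11, Anxa1 and Anxa5, both knockouts lay below both controls, and in 0 of the 10 did both lie above. Over all 7823 tested genes the shares were 11.4% below and 27.8% above. Since the members were picked on this comparison, their count is not read against those shares. In 3 members, S100a10, Anxa2 and S100a4, the libraries numbered 1 of both groups were high and those numbered 2 near 0. S100a6 was high in a single library, and Anxa3 and Anxa4 overlapped between the groups.

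**Figure D1:**
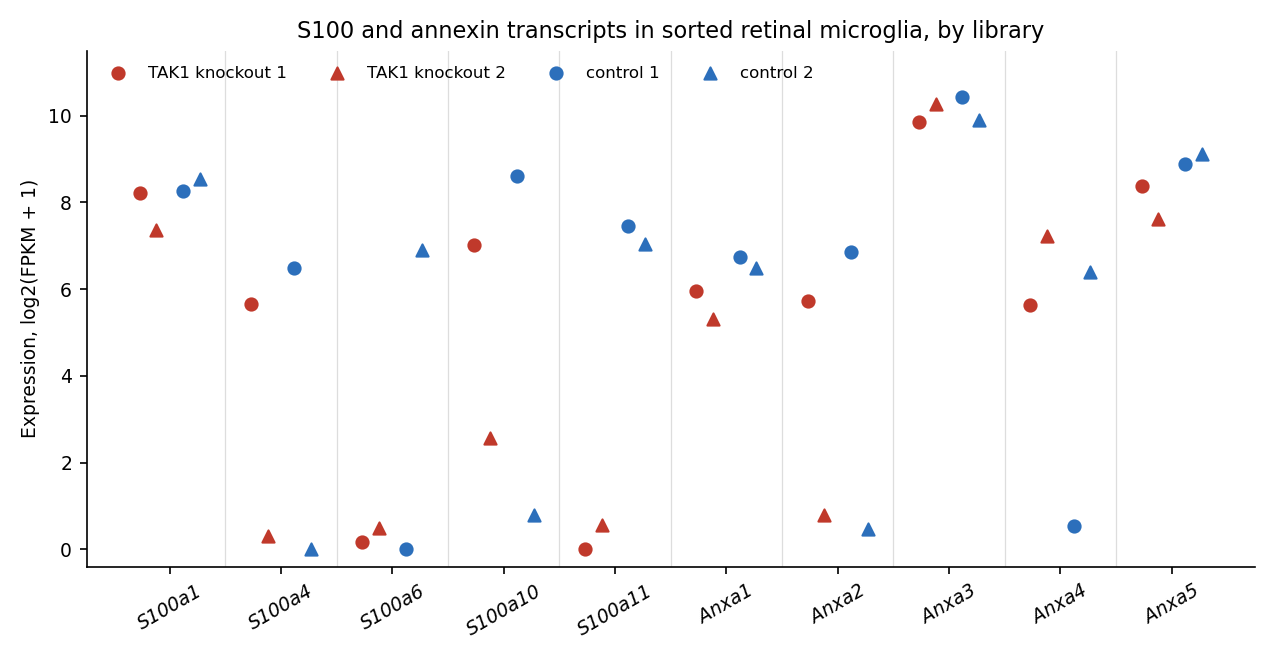
Expression of each member on the log2(FPKM + 1) axis, with red for TAK1 knockout and blue for control libraries, circles for library 1 and triangles for library 2 of a group. Both red points lie below both blue points for S100a1, S100a11, Anxa1 and Anxa5, and both circles lie far above both triangles for S100a4, S100a10 and Anxa2.

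By level, Anxa3 stood apart, with 928 to 1371 FPKM over the 4 libraries. Anxa5 followed with 194 to 556 FPKM and S100a1 with 165 to 371 FPKM, and their ranges overlapped. Anxa1 read 38.8 to 107 FPKM and lay below both of these in every library. The other 6 members came to 0.73 FPKM or less in at least 1 library, so their places in the order do not hold beyond the spread. FPKM is scaled to transcript length, so these levels can be compared roughly between genes. That scaling does not remove differences from cDNA amplification or from how reads were assigned to genes, which were not tested.

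S100a11, whose protein binds annexin A1 and acts in membrane repair and growth control, differed most between the groups. It was listed at 0 and 0.47 FPKM in the knockouts, against 174 and 131 FPKM in the controls. The controls were close to each other and the groups did not overlap. The log2 fold change, knockout minus control on log2(FPKM + 1), was -6.97. That size depends on the pseudocount, since it was -9.30 with 0.1 FPKM and -4.90 with 5 FPKM in place of 1. It was -7.25 to -6.69 when any 1 library was left out. S100a11 made up 0% and 0.275% of the summed FPKM of the 5 S100 members in the knockouts and 18.1% and 21.1% in the controls.

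Among the other tested genes, those with the pattern nearest to S100a11 by Euclidean distance on log2(FPKM + 1) over 4 libraries were Clec12a, Fkbp7 and Rgs18. Clec12a, a myeloid lectin gene, read 0.36 and 0.48 FPKM in the knockouts and 144 and 199 FPKM in the controls. Its distance to S100a11 was 0.792 log2 units. The nearest member was S100a6, at distance 7.45 and place 1016 among 7822 other genes. No other member shared the form of S100a11.

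Anxa5 encodes the annexin that binds phosphatidylserine on dying cells. It read 332 and 194 FPKM in the knockouts and 473 and 556 FPKM in the controls. The means were 263 ± 97.4 FPKM in the knockouts and 514.5 ± 58.4 FPKM in the controls (SD, n = 2 each), a log2 fold change of -1.01. Both knockouts lay below both controls, with knockout 2 the lowest library. After median ratio scaling the log2 fold change was -1.94.

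Anxa1 encodes a protein that curbs inflammation through formyl peptide receptors and is induced by glucocorticoids. It read 61.5 and 38.8 FPKM in the knockouts and 107 and 89.2 FPKM in the controls. The means were 50.1 ± 16 FPKM in the knockouts and 97.9 ± 12.2 FPKM in the controls (SD, n = 2 each), a log2 fold change of -0.98. As for Anxa5, the groups did not overlap and knockout 2 was lowest. After median ratio scaling the log2 fold change was -1.90.

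S100a1, best known as a calcium sensor of heart muscle and also found in brain, read 295 and 165 FPKM in the knockouts and 307 and 371 FPKM in the controls. The means were 230.2 ± 91.9 FPKM in the knockouts and 338.9 ± 45.4 FPKM in the controls (SD, n = 2 each), a log2 fold change of -0.61. Knockout 1 and control 1 were nearly level, and after rescaling each library to the same sum the groups overlapped. After median ratio scaling the log2 fold change was -1.54. In RefSeq (GRCm38.p6) S100a1 and S100a13 overlap by 98 bases on chromosome 3. Reads from this stretch cannot be told apart without strand, and a count by strand is not stated.

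Annexin A2 and S100A10, also called p11, form the complex that binds plasminogen and its activator at the cell surface. S100A10 is the member of its family that no longer binds calcium. S100a10 read 128 and 4.92 FPKM in knockouts 1 and 2, against 391 and 0.73 FPKM in controls 1 and 2. Anxa2 read 52.0 and 0.73 FPKM in the knockouts and 115 and 0.38 FPKM in the controls. The same libraries were high for both genes, and in both genes the high control lay above the high knockout. In the libraries with a clear signal S100a10 stood at 2.46 times Anxa2 in knockout 1 and at 3.41 times Anxa2 in control 1.

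S100a4, whose protein binds nonmuscle myosin and is abundant in motile leukocytes, followed the same libraries. It read 49.8 and 0.24 FPKM in the knockouts and 88.3 and 0 FPKM in the controls. Together the 3 genes summed to 230 and 5.89 FPKM in knockouts 1 and 2 and to 595 and 1.11 FPKM in controls 1 and 2. Their log2 fold changes between the groups were 0.08 for S100a10, -0.40 for Anxa2 and -0.25 for S100a4. Each took both signs with the library left out. Without control 2 they were -3.83 for S100a10, -3.60 for Anxa2 and -3.49 for S100a4, and without control 1 they were 3.996, 2.80 and 2.99 for the same genes. No direction is therefore given for them.

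The pattern was not peculiar to these families. Of all 7823 tested genes, 446 (5.7%) read at least 10 times as high in both libraries numbered 1 as in either library numbered 2. The reverse held for 287 genes (3.67%) and for 0 of the members. By Euclidean distance S100a4 was place 17 among the 7822 other genes from Anxa2, and Anxa2 was place 35 from S100a10. Nearer to Anxa2 stood Rnf34, named after its values were seen, at 48.2 and 0.45 FPKM in the knockouts and 110 and 0.23 FPKM in the controls. Whether the numbers 1 and 2 mark shared handling of the libraries is not stated in the labels.

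**Figure D2:**
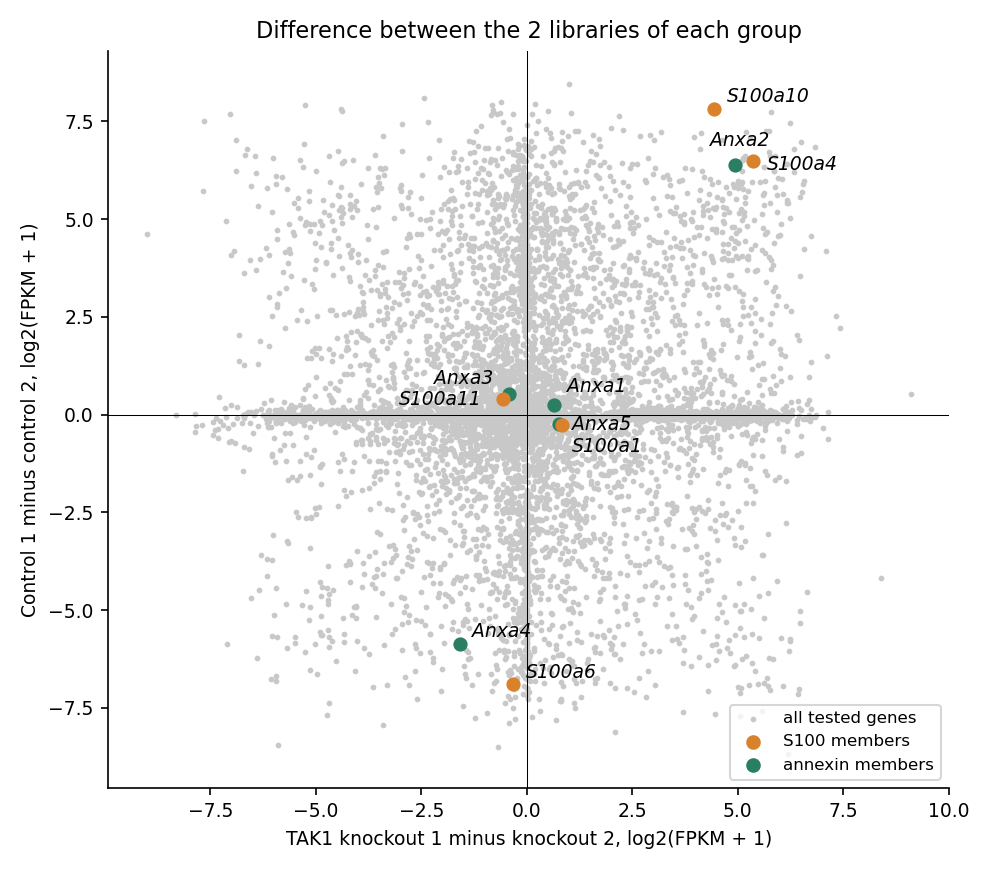
Difference between library 1 and library 2 on the log2(FPKM + 1) scale, knockouts on the x axis and controls on the y axis, 1 grey point for each of 7823 tested genes. S100a10, Anxa2 and S100a4 lie at the upper right, at 4.44 to 5.36 in the knockouts and 6.39 to 7.83 in the controls. S100a6 and Anxa4 lie low, at -6.89 and -5.86 in the controls.

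The windows from 250 bases before to 50 bases after the gene start are shown for S100a11, the member that differed most, and for Anxa2 and S100a4, which were high in the same libraries. They are RefSeq sequences of GRCm38.p6, all on the plus strand: chr3:93520246-93520545 for S100a11, chr9:69453433-69453732 for Anxa2 and chr3:90603520-90603819 for S100a4. Capitals mark TGANTCA, the core motif of AP-1, a factor downstream of MAP kinases, and TATAAA, the TATA box.
S100a11: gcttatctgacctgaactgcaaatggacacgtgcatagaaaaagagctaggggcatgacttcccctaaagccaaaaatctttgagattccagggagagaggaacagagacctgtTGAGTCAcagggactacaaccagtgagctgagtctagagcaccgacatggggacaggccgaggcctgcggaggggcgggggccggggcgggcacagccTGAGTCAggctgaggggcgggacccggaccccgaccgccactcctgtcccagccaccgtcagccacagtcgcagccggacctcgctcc
Anxa2: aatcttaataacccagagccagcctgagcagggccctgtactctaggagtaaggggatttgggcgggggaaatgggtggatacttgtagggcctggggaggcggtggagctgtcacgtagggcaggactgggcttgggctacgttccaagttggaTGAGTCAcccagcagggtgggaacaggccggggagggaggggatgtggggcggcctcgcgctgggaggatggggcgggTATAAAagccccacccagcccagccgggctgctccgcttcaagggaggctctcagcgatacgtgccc
S100a4: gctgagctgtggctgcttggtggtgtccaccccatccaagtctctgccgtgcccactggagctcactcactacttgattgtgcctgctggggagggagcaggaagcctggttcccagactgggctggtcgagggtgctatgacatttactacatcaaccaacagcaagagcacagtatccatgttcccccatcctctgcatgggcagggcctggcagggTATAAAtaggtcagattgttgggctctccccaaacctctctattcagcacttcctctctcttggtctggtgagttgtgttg

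Of the members, 8 genes matched the promoter table, with 9 windows, since Anxa4 had more than 1. TGANTCA, searched on both strands, occurred in 2 of the 9 windows and in 7.81% of all 32851 windows of that length. Its matches began 136 and 38 bases before the S100a11 start and 95 bases before the Anxa2 start. TATAAA, searched on both strands and not overlapping TGANTCA here, occurred in 3 of the 9 windows, of Anxa1, Anxa2 and S100a4, and in 13.6% of all windows. It began 32 bases before the Anxa1 start, 17 before the Anxa2 start and 31 before the S100a4 start. The S100a4 window held no TGANTCA.

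S100a6, a calcium sensor of dividing cells and fibroblasts that binds the ubiquitin ligase partner Cacybp, read 0.12 and 0.40 FPKM in the knockouts and 0 and 118 FPKM in the controls. Control 2 alone carried the signal, so the log2 fold change of -3.12 rests on that library. Without it the gene did not reach the filter. S100a6 was the single member with over 90% of its FPKM in 1 library. S100a4 and S100a6 lie 6.85 kb apart on chromosome 3, yet S100a4 was high in control 1 and S100a6 in control 2. S100a11 and S100a10 lie 28.8 kb apart, and they too differed in which libraries were high. All 5 S100 members lie within 3.05 Mb of chromosome 3 (90511034 to 93564645, GRCm38.p6).

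Anxa3, an annexin of neutrophils and other myeloid cells, read 928 and 1232 FPKM in the knockouts and 1371 and 959 FPKM in the controls. The means were 1080 ± 215 FPKM in the knockouts and 1165.1 ± 292 FPKM in the controls (SD, n = 2 each), so the difference was smaller than the spread between replicates. Its log2 fold change of -0.10 was 0.06 after rescaling to the same sum and -1.03 after median ratio scaling. The nearest genes to it were Rplp1 and Rps19 of the ribosome and Cd53, a tetraspanin of leukocytes, at distances of 0.277 to 0.369 log2 units. Cd53 read 1043 and 1028 FPKM in the knockouts and 1392 and 1098 FPKM in the controls.

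Anxa4, an annexin studied mainly in epithelia, read 48.5 and 148 FPKM in the knockouts and 0.46 and 83.7 FPKM in the controls. It was the member with the highest log2 fold change, 2.95, but the groups overlapped, since control 2 lay between the knockouts. Without control 1 the log2 fold change was 0.02, and without control 2 it was 5.88. Control 1 alone set Anxa4 apart from the knockouts.

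Summed by family, the 5 S100 members came to 473 and 171 FPKM in the knockouts and 960.2 and 621 FPKM in the controls. The 5 annexin members came to 1421 and 1614 FPKM in the knockouts and 2067 and 1688 FPKM in the controls. In both families the knockouts lay below the controls, and the annexins of knockout 2 came close to control 2. As a share of the FPKM of the library, the S100 sum was 0.0574% and 0.0211% in the knockouts and 0.099% and 0.0719% in the controls. The annexin share was 0.173% and 0.199% in the knockouts and 0.213% and 0.195% in the controls, and there the groups overlapped. Anxa3 held 65.3% and 76.4% of the annexin sum in the knockouts and 66.4% and 56.8% in the controls. In sorted bulk samples a lower sum can come from fewer expressing cells or from less RNA per cell, and these cannot be told apart.

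**Figure D3:**
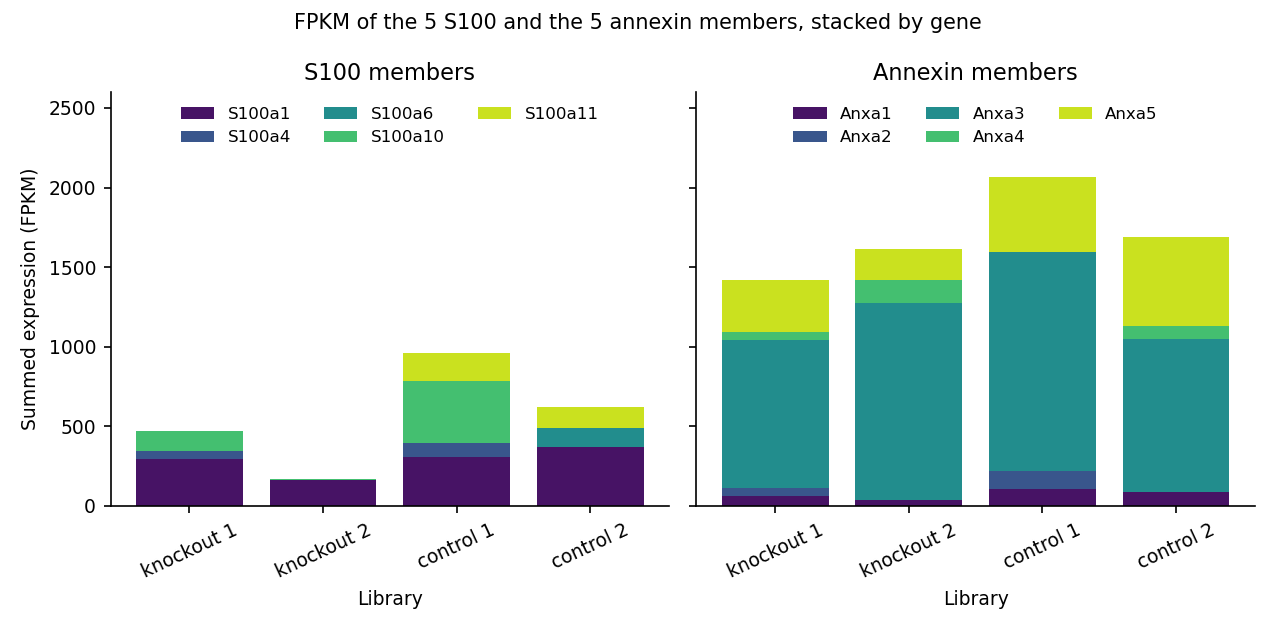
Stacked bars of the FPKM of the 5 S100 members (left) and 5 annexin members (right) in each library, knockouts before controls, with 1 colour per gene. Nearly all of the S100 sum of 171 FPKM in knockout 2 is S100a1, and Anxa3 is the tallest part of every annexin bar.

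The median log2 fold change of the 10 members was -0.50, where that of all tested genes was 0.94. The shift of all genes was 0.28 after median ratio scaling and 0.12 after quantile normalization. The members' median was -1.29 and -1.02 under the same scalings. It was -1.77 without knockout 1, -0.25 without knockout 2, -0.36 without control 1 and -1.11 without control 2. S100a11, Anxa1 and Anxa5 lay below both controls under every scaling. Of all tested genes, 9.74% lay below after rescaling to the same sum. The share was 20.1% after median ratio scaling and 19.9% after quantile normalization, against 11.4% without scaling. After median ratio scaling S100a1 and Anxa3 lay below both controls too. Leaving out a library cannot undo such an order, so it could only add to the 4 members below both controls. Without knockout 1 the members below stayed the same 4. Without control 2 the count was 8 of 9 tested, where 27.3% of all genes tested lay below. Without control 1 it was 5 of 10, where 24.6% of all genes lay below, while S100a4, S100a10 and Anxa2 then lay above the remaining control, as did 45.3% of all genes.

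The wider families, partners and receptors were compared by limma's moderated test over the whole table. Of 7823 tested genes, 0 (0%) were called higher and 0 (0%) lower in the knockouts at an adjusted p under 0.05, with 602 genes at an unadjusted p under 0.05, 475 higher and 127 lower. A direct permutation of 2 against 2 libraries cannot go below p = 0.333. Of 62 further genes in 5 lists, 45 were in the table, 32 were tested and 0 were called (limma smallest adjusted p = 0.559). Among the 32, the knockouts lay above the controls without overlap for 10 genes and below for 6, beside 27.8% and 11.4% over the whole set of tested genes. Their median log2 fold change was 0.16, where that of all tested genes was 0.94.

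The rest of the S100 family was little seen. Of 5 further S100 genes in the table, S100a13, a partner in the release of proteins without a signal peptide, passed the filter. It read 286 and 68.2 FPKM in the knockouts and 279 and 17.9 FPKM in the controls (limma adjusted p = 0.771), with the libraries numbered 1 higher in both groups. S100a3, S100a7a, S100a16 and S100b were at 0.09 FPKM or less in every library. S100b, the astrocyte calcium sensor, was listed at 0 in both knockouts and at 0.08 and 0 FPKM in the controls.

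Of 5 further annexins, 3 passed the filter. Anxa7, which takes part in membrane fusion and vesicle traffic, lay above both controls in both knockouts, as did 27.8% of all tested genes. It read 57.0 and 18.9 FPKM in the knockouts and 0.27 and 0.10 FPKM in the controls, with a log2 fold change of 4.85 ± 1.63 (SE) and a limma adjusted p of 0.579. Anxa6 read 2.58 and 0 FPKM in the knockouts and 11.9 and 0 FPKM in the controls (limma adjusted p = 0.835), and it was the gene of these 5 lists that shared the library pattern of Anxa2. Anxa11, whose protein binds S100A6, was listed at 0 in both knockouts and at 0.03 and 7.67 FPKM in the controls (limma adjusted p = 0.698). Like S100a6 it was seen in control 2 only. Anxa8 and Anxa9 did not exceed 0.53 FPKM.

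Among binding partners, 9 of 17 were tested. Of these, 3 lay above both controls and 1 below, near the shares of all tested genes (27.8% and 11.4%). Plaur, the urokinase receptor, which acts beside annexin A2 and S100A10 in surface proteolysis, read 62.4 and 84.8 FPKM in the knockouts and 0.28 and 0.05 FPKM in the controls (limma adjusted p = 0.559). Pdcd6, which binds annexins A7 and A11, read 84.0 and 225 FPKM in the knockouts and 76.2 and 0.55 FPKM in the controls (limma adjusted p = 0.698). Pdcd6ip, its partner in membrane repair, read 2.21 and 8.04 FPKM in the knockouts and 0.02 and 0.05 FPKM in the controls, at the same adjusted p of 0.698 from limma. Myof, of the dysferlin family, read 0.02 FPKM in both knockouts and 0 and 12.9 FPKM in the controls, again seen in control 2 only. Myh9, the myosin bound by S100A4, was outside the rule for names and was the 1 partner below both controls, at 2.09 and 1.38 FPKM in the knockouts and 3.83 and 5.35 FPKM in the controls.

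Among receptors for these proteins, 4 of 7 were tested. Of these, 2 lay above both controls and 1 below, where 27.8% and 11.4% of all tested genes did. Tlr4, a receptor for released S100 proteins and endotoxin, read 39.0 and 17.4 FPKM in the knockouts and 0.02 and 0.31 FPKM in the controls (limma adjusted p = 0.582). Bsg, a receptor for S100A9, read 399 and 220.5 FPKM in the knockouts and 64.4 and 54.8 FPKM in the controls (limma adjusted p = 0.595). Both lay above the controls in both knockouts. Fpr2, the formyl peptide receptor that annexin A1 engages, lay below them, at 0.17 and 57.1 FPKM in the knockouts and 98.2 and 87.0 FPKM in the controls (limma adjusted p = 0.698). Cd36, a scavenger receptor, was high in control 1 alone, at 122 FPKM, and read 0.25 and 0.16 FPKM in the knockouts and 0.10 FPKM in control 2.

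Of 19 other calcium-binding genes 15 were tested, with 4 above both controls and 3 below, where 27.8% and 11.4% of all tested genes were. Their median log2 fold change was 0.14, against 0.94 over all tested genes. The abundant calmodulin gene Calm2 was outside the rule for names and read 6085 and 9090 FPKM in the knockouts and 6564 and 6616 FPKM in the controls. Capns1, the small calpain subunit, read 31.2 and 40.3 FPKM in the knockouts and 0.13 and 0.23 FPKM in the controls (limma adjusted p = 0.562). Aif1, the EF-hand protein known as Iba1, read 1246 and 1611 FPKM in the knockouts and 2389 and 2318 FPKM in the controls (limma adjusted p = 0.643). Capg, an actin-capping protein, read 202 and 262 FPKM in the knockouts and 11.6 and 160 FPKM in the controls (limma adjusted p = 0.698). Cetn3, a centrosome protein, read 389 and 748 FPKM in the knockouts and 823 and 1002 FPKM in the controls, at the same limma adjusted p of 0.698. Like Aif1, it was lower in both knockouts than in either control.

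**Figure D4:**
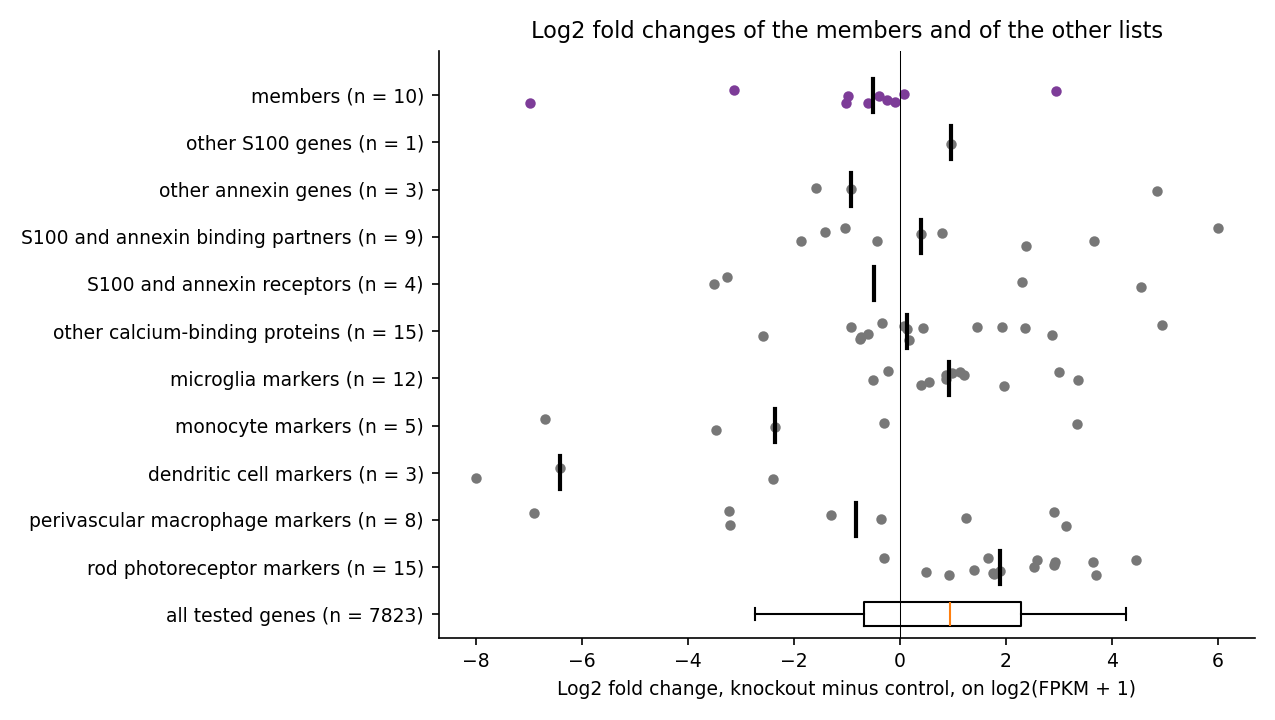
Log2 fold change (knockout minus control) on the log2(FPKM + 1) scale for the members, in purple, and for the tested genes of further family, partner, receptor and marker lists, in grey, with a black bar at each median. The box at the bottom spans the quartiles of all 7823 tested genes, whiskers reach the 5th and 95th percentiles, and its line is at 0.94, against a median of -0.50 for the members.

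S100a4, S100a6, S100a10, S100a11 and Anxa2 are also expressed by monocytes and dendritic cells. Of 11 monocyte markers 8 were in the table, with a summed level of 7.38 and 127 FPKM in the knockouts and 377 and 327 FPKM in the controls. Of the 5 tested, 1 was below both controls in both knockouts, beside 11.4% of all tested genes, and 4 overlapped. Limma called 0 of the 5, with a smallest adjusted p of 0.559 and 1 marker at an unadjusted p under 0.05. The 1 below was Ccr2, a chemokine receptor of monocytes, which read 1.81 and 0.59 FPKM in the knockouts and 316 and 151 FPKM in the controls. Plac8 was high in control 2 alone, like S100a6, at 173 FPKM, and F13a1 in knockout 2 alone, at 119 FPKM. Of 9 dendritic cell markers 7 were in the table, summing to 1.25 and 2.52 FPKM in the knockouts and 610 and 1000.2 FPKM in the controls, and Xcr1 was at 0 throughout. Their leading genes were Cd209a, Mgl2 and Clec10a, the 3 that were tested. All 3 lay below both controls, as did 11.4% of all tested genes. Cd209a made up most of the sum, at 1.19 and 2.10 FPKM in the knockouts and 503 and 886 FPKM in the controls. Clec10a was high in control 1 alone, at 24.1 FPKM. Itgax stayed below the filter, with 3.71 FPKM in control 2, and Zbtb46 and Ccr7 did not exceed 0.08 FPKM.

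Perivascular macrophage markers, 9 of 9 in the table, summed to 190 and 721 FPKM in the knockouts and 2334 and 1752 FPKM in the controls. Except in knockout 2, most of the sum was Ms4a7, at 189 and 155 FPKM in the knockouts and 1614 and 1547 FPKM in the controls. Of 8 tested markers, 2 (Ms4a7 and Clec12a) lay below both controls, beside 11.4% of all tested genes, and 6 overlapped. Pf4 was high in knockout 2 and control 1, and Lyve1 and Cbr2, named after their values were seen, were high in knockout 2 alone. S100a11 was high in the controls with Ccr2, Cd209a and Clec12a, whereas S100a10, Anxa2 and S100a4 were near 0 in control 2, where Cd209a was highest. Whether other cells in the sort carried the S100 and annexin signal was not tested.

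The 15 rod markers summed to 6442 and 9440 FPKM in the knockouts and 2278 and 3346 FPKM in the controls, led by Gngt1, Pdc and Sag. Of these 15 genes 12 lay above both controls and 0 below, beside 27.8% and 11.4% of all tested genes. Gngt1 was among the 3 that overlapped. Limma called 0 of the 15, with a smallest adjusted p of 0.559 and 6 markers at an unadjusted p under 0.05. Müller glia and astrocyte markers, 10 of 10 in the table, summed to 1022 and 635 FPKM in the knockouts and to 268 and 432 FPKM in the controls. Of 7 tested genes there, 1 lay above both controls and 1 below, beside 27.8% and 11.4% of all tested genes. The 1 above was Glul, the leading gene, at 774 and 599 FPKM in the knockouts and 84.6 and 318 FPKM in the controls. Clu overlapped, at 87 and 3.32 FPKM in the knockouts and 48.6 and 81.9 FPKM in the controls. The 1 below was Vim, a filament gene, at 1.78 and 5.8 FPKM in the knockouts and 87.8 and 29.1 FPKM in the controls. Pericyte markers summed to 156 and 29.4 FPKM in the knockouts and 0.21 and 1.93 FPKM in the controls. Endothelial markers summed to 15.9 and 8.32 FPKM in the knockouts and 0.05 and 0.5 FPKM in the controls. Of 10 neutrophil markers 3 were in the table, led by Csf3r at 24.1 and 32.9 FPKM in the knockouts and 8.19 and 0.17 FPKM in the controls. Lymphocyte markers did not exceed 0.11 FPKM in sum, and pigment epithelium markers reached 9.72 FPKM in control 1 and 0.03 FPKM or less elsewhere. The part of these cells in the values of the members was not tested.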

How the data were processed

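RNA-seq was made from 200 sorted cells per library by SMART-seq amplification of full-length cDNA, per the labels' protocols. The deposited table holds FPKM computed by the authors, rounded to 2 decimals, in 1 column per library. Per the submitters' processing notes, mm10 was used. No aligner, quantifier or annotation is stated there. FPKM keep no read counts, so depth is unknown and no counting interval is given.

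The 7823 of 15586 genes that averaged 1 FPKM or more were compared on log2(FPKM + 1) by limma's moderated test (limma 3.58.1, R 4.3.3, trended variance), with Benjamini-Hochberg adjustment over all of them and a threshold of 0.05. The code was tested on simulated data. Gene positions were taken by gene identifier from RefSeq (GRCm38.p6), in which 15470 of 15586 identifiers were found. Figures were drawn with matplotlib 3.10.9.

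The members and lists were chosen with earlier results of these data known. Named were all members, further S100 and annexin genes past the filter, up to 4 genes per partner list by p, up to 3 per marker list by mean, and the 3 nearest genes to S100a11 and Anxa3. Map3k7, the targeted gene, was named too. Polr2a, Rnf34, Myh9, Calm2, Calu, Lyve1, Cbr2 and genes below the filter were named after their values were seen. Alternatives were pseudocounts, filters, scalings, variance priors, a replicate block, left-out libraries and a threshold of 0.1.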

Additional observations from a re-analysis of the deposited data

How the results depend on the processing

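Quantile normalization called 2 genes higher and 4 lower over the table. Leaving out 1 library gave 0 to 1306 genes higher and 0 to 5 lower, the high counts coming without either knockout, where the lone knockout is assumed to vary like the controls. Among the further S100, annexin, partner, receptor and calcium-binding genes, leaving out 1 library gave 0 to 2 called higher and 0 called lower: Pdcd6ip without knockout 1, and Calu and Capns1 without knockout 2. For the members, leaving out 1 library gave a median log2 fold change of -1.77 to -0.25, 0 to 3 members above the controls and 4 to 8 below. Over all genes tested in the same settings, 42.1% to 45.6% lay above and 21.3% to 27.3% below. Leaving out a library cannot undo a lack of overlap in a gene still tested, so the member counts could not fall.

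With the replicate number as a block, 15 genes were called higher and 20 lower, on 1 residual degree of freedom. In that fit limma took the variance of each gene wholly from the trend over all genes. These counts therefore do not reflect the spread of the called genes themselves. The deviations of libraries with the same number correlated at 0.0166 over 7823 genes. This is 1 value over all genes, and the labels do not pair the libraries. Shared handling of libraries with the same number was not tested.

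The log2 fold change of single members moved by more than 1 SD between replicates for S100a11 under each pseudocount, and for S100a1, S100a11, Anxa1, Anxa3 and Anxa5 after median ratio scaling. For S100a4, S100a6, S100a10, Anxa2 and Anxa4 that SD is too wide to show a move. S100a4, S100a10, Anxa2 and Anxa3 took both signs. S100a6 gave no value without control 2. Unknown depth and 2 libraries per group limit all of these values.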
